A study of Mus musculus with 12 samples.

Results

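Livers of mice given Insulin-Apo were compared with livers of mice given saline on 6 of the 12 arrays of the series, 3 arrays for each treatment. In Insulin-Apo a single-chain insulin is followed by a short linker, by human apolipoprotein A-I, the main protein of high-density lipoproteins, and by a histidine tag. It was made in Escherichia coli, as was Albulin, a fusion of insulin with albumin that served as the other long-lived insulin of the study. All groups were C57BL/6 mice of 6 weeks by the labels. They received 1 subcutaneous injection of saline, 55 nmol/kg Insulin-Apo, 55 nmol/kg Albulin or 55 nmol/kg insulin glargine (a modified insulin with prolonged action), and the liver was taken 6 h later. The methods add that the mice were female C57BL/6J, and give an age at purchase that is above the labels' age. No time of day is given in the sources used here, and whether every array stands for its own mouse is not stated in them, so p-values cover the spread among these arrays alone, and that spread may be technical.

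The values are log2 expression values from Affymetrix arrays (Mouse Gene 1.0 ST), whose probes are summarized in sets, with a set for each transcript cluster. A difference of 1 is therefore a 2-fold change. Of 28213 probe sets, 25989 were over 5 in at least 2 arrays of saline, Albulin or Insulin-Apo and were tested, 25912 of them by the values of the saline or the Insulin-Apo arrays. The other 77 passed through the Albulin arrays alone, and 0 of these 77 were called between Insulin-Apo and saline. Array medians were 7.70 to 7.77 throughout. Each array's average correlation with its own group was 0.995 to 0.997 in saline, Albulin and Insulin-Apo and 0.990 to 0.993 in insulin glargine. The hepatocyte markers Alb and Apoa1 were at 14.75 to 14.83 in all 6 saline and Insulin-Apo arrays. Xist, which is expressed in females, was at 13.05 to 13.29 in them.

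The hepatocyte is both a target of insulin and a secretory cell. Insulin acts through its receptor and the kinase Akt to restrain glucose output and to raise fatty acid synthesis. Cytokines such as interleukin 6 act through Stat3 to raise the acute phase proteins, which the hepatocyte secretes into plasma. Secreted proteins are folded and glycosylated in the endoplasmic reticulum (ER). The unfolded protein response is the programme by which this compartment gains chaperones when its load rises. Many liver genes also follow the circadian clock.

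A probe set was called when limma's B statistic, the log odds that it differs, was over 0 in a fit of the 9 saline, Albulin and Insulin-Apo arrays. Between Insulin-Apo and saline 556 probe sets were called, which is 2.14% of those tested. Of these, 347 were higher and 209 lower after Insulin-Apo, and the largest Benjamini-Hochberg adjusted p among them was 0.0258. The called probe sets held 493 genes. In all 556 the Insulin-Apo and saline arrays did not overlap, as in 23.1% of all probe sets tested. A lack of overlap therefore adds nothing to a call. The median log2 difference was 0.62 among the higher and -0.52 among the lower calls, and 49 were at least 1 higher and 18 at least 1 lower. With 1 probe set per gene, 1.56% of 18901 genes were called higher and 0.995% lower. These shares are the background for the gene lists given here. The lists were chosen with earlier results of these data known, so their counts are not independent evidence. Without saline replicate 2 there were 324 calls. An unadjusted p under 0.05 was found for 4526 of the 25989 probe sets tested, in either direction. Counts of list members at that threshold are to be read beside this share.

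The 3 Insulin-Apo arrays did not move equally. Among the called probe sets, Insulin-Apo replicate 2 was the array farthest from the saline mean in 62.4% and Insulin-Apo replicate 3 the nearest in 71.2%. The median distance from the saline mean was 0.58 for replicate 1, 0.64 for replicate 2 and 0.46 for replicate 3. Without replicate 2 there were 382 calls, without replicate 1 there were 402 and without replicate 3 there were 643.

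**Figure D1:**
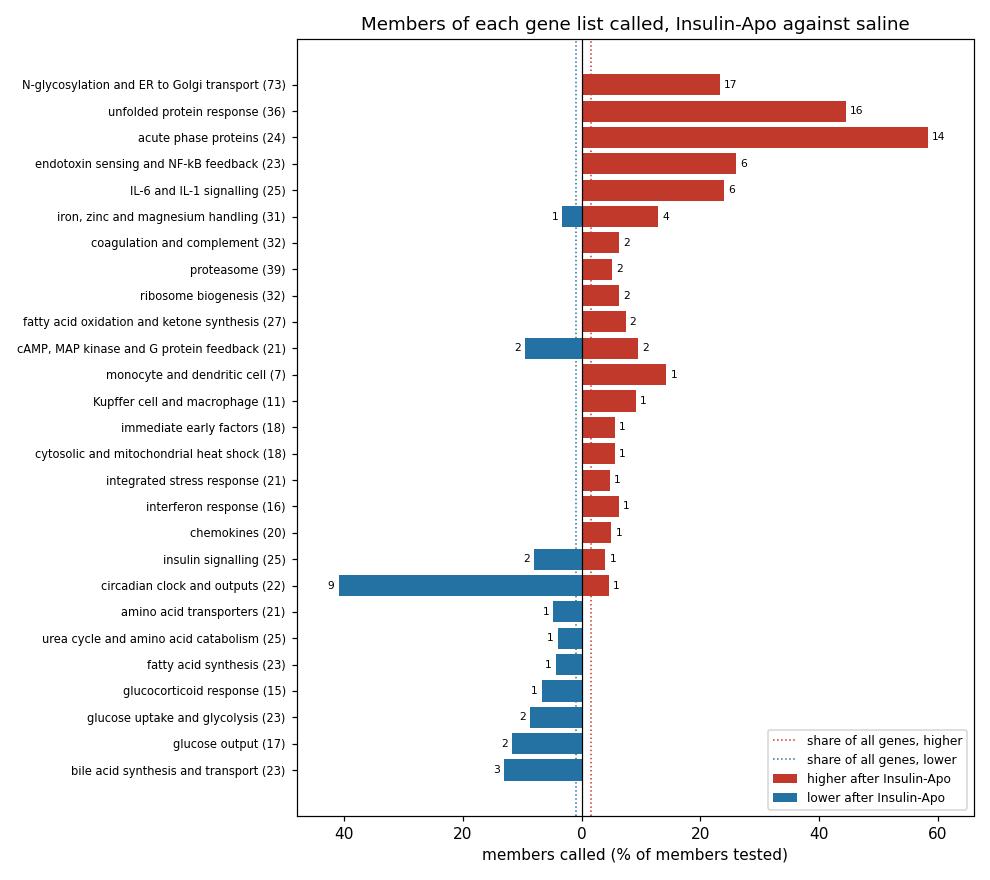
Share of the tested members of each gene list called higher (red, right) or lower (blue, left) after Insulin-Apo than after saline, in % of members, with the number called at each bar and the number tested in brackets. Lists with at least 1 call are drawn, and the dotted lines mark the share of all genes, 1.56% higher and 0.995% lower. Acute phase proteins, with 14 of 24 members, have the longest bar to the right and clock genes, with 9 of 22, the longest to the left.

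The largest increases were in genes of acute phase proteins. Saa1 and Saa2 encode serum amyloid A, a lipoprotein-bound protein of inflammation. The log2 value of Saa1 was 5.98, 6.49 and 6.43 in the saline arrays and 11.82, 12.42 and 10.65 in the Insulin-Apo arrays. The groups lay over 4 log2 units apart at their closest, and Insulin-Apo replicate 3 was the lowest treated array. Saa1 rose by 5.33 (SE 0.42, adjusted p = 0.000295, limma), which is 40.3-fold. Saa2 was 8.16, 8.49 and 8.73 after saline and 13.51, 13.94 and 12.80 after Insulin-Apo, a rise of 4.96 (SE 0.28). Both genes are close copies of each other, and how far their probes are shared was not tested.

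Of 24 acute phase genes tested, 14 were called higher and 0 lower, or 58.3% against 1.56% of all genes, and the log2 difference was above 0 in all 24, with a median of 0.44. The median over all genes was -0.02. Among serum amyloid and pentraxin genes 4 of 6 rose, among them Saa4 by 0.71 and Apcs, which encodes serum amyloid P, by 1.28. Apcs was 11.83, 12.28 and 12.30 after saline and 13.40, 13.47 and 13.36 after Insulin-Apo, with no overlap. Orm2, an orosomucoid that carries small molecules in plasma, rose by 2.70 (SE 0.18, adjusted p = 0.000149, limma), from 10.78, 10.91 and 10.85 to 13.47, 14.03 and 13.16. Its relative Orm1 rose by 0.50 from a higher level, and Lcn2, which binds iron siderophores, by 1.40. Steap4, a metalloreductase, rose by 1.99, the metal-binding Mt1 by 0.70 and Lrg1, a secreted glycoprotein, by 0.75. Rises under 0.5 were called for Lbp, which binds lipopolysaccharide, by 0.42, for the protease inhibitors Serpina3n by 0.41 and Itih4 by 0.40, and for the fibrinogen chain Fga by 0.32. The Fga probe set with the highest mean was at 14.12 to 14.28 in saline, near the top of the scale, and a dimmer probe set of the gene differed by 1.30. Saa3 was not called, since its 3 Insulin-Apo arrays spread from 8.96 to 12.32, with 10.03 between them, against 8.44 to 8.75 in saline. The number of members higher ranged from 10 to 14 when 1 array was left out. The calls of Lbp, Serpina3n, Itih4 and Fga depended on single arrays, each being lost when Insulin-Apo replicate 1 or 2 or saline replicate 1 was left out, and Lbp also without every other array but Insulin-Apo replicate 3. Serpina3n was lost without saline replicate 3 as well, Itih4 without saline replicates 2 and 3 and Albulin replicate 2, and Fga without saline replicate 2, Albulin replicates 1 and 3 and Insulin-Apo replicate 3.

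**Figure D2:**
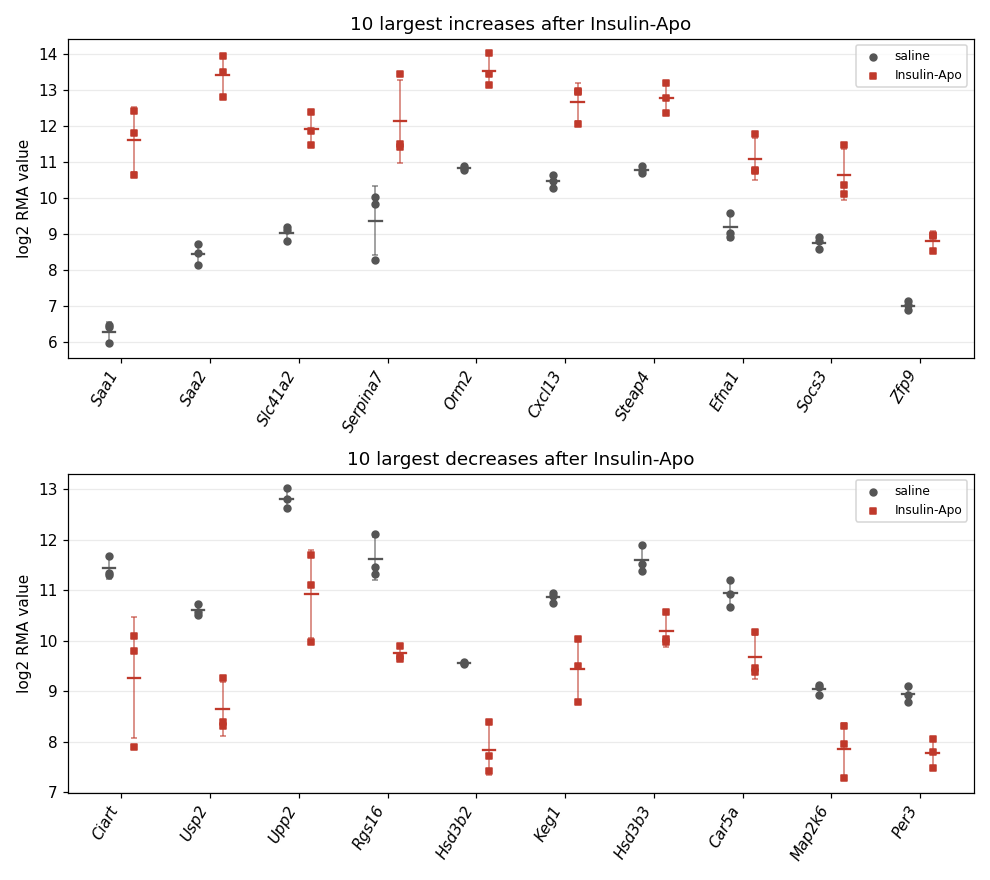
Log2 expression value of the 10 genes with the largest called increase (top) and the 10 with the largest called decrease (bottom) in each saline (grey circles) and Insulin-Apo (red squares) array. Short lines are group means and bars the SD of 3 arrays. Saa1 rises from about 6 to over 10, and Insulin-Apo arrays spread more than saline arrays in Ciart and Upp2.

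Some receptors, 1 transducer and some feedback genes on a list of cytokine signalling rose. Of 25 genes listed under interleukin 6 and interleukin 1 signalling, 6 rose and 0 fell (24.0%). Osmr, a subunit of the oncostatin M receptor, rose by 0.72, the tumour necrosis factor receptor Tnfrsf1a by 0.60 and the transcription factor Stat3 by 0.53. Stat3 was 11.73, 11.75 and 11.93 after saline and 12.35, 12.35 and 12.30 after Insulin-Apo. Its feedback inhibitor Socs3 had values of 8.80, 8.92 and 8.59 in saline and 10.38, 11.47 and 10.12 after Insulin-Apo. The groups did not overlap, and Socs3 rose by 1.89 (SE 0.30, adjusted p = 0.00788, limma). A dimmer probe set of Socs3 differed by 0.29 and was not called. Bcl3, an atypical inhibitor of NF-kB, rose by 1.09 and the kinase Pim1 by 1.10. The cytokine genes themselves gave 0 calls among 6 tested by limma, with 2 higher and 1 lower at an unadjusted p under 0.05. At that threshold 3 of the 8 receptors were higher and 1 lower, and 2 of the 5 transducers were higher and 1 lower. Il1b, which encodes interleukin 1 beta, was 7.80, 7.78 and 7.78 after saline and 8.39, 9.61 and 8.60 after Insulin-Apo, with no overlap. Its difference of 1.08 had an adjusted p of 0.0435 by limma and a B below 0. Without saline replicate 3, 3 members were higher, since the calls of Osmr, Tnfrsf1a and Pim1 were lost. The calls of Osmr and Pim1 were lost without saline replicate 1 too, and that of Osmr without saline replicate 2, Albulin replicate 2 and Insulin-Apo replicates 1 and 2.

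Of 23 genes listed under endotoxin (bacterial lipopolysaccharide) sensing and NF-kB feedback, 6 were called higher (26.1%) and 0 lower. Of these calls 3 were among the 5 receptors. The coreceptors Cd14 and Ly96 rose by 0.76 and 0.65, the adaptor Tirap by 0.75 and the inhibitory kinase Irak3 by 0.95. Lbp, also counted among the acute phase genes, and the adhesion molecule Icam1, with a difference of 0.45, were the others. Cd14 was 7.93, 7.86 and 8.09 in the saline arrays and 8.71, 9.03 and 8.43 in the Insulin-Apo arrays, without overlap. These calls changed with the arrays used. Without saline replicate 1, 0 members were called (1 without saline replicate 2), and 3 were called without each of saline replicate 3, Albulin replicate 3, Insulin-Apo replicate 1 and Insulin-Apo replicate 2, as well as in a fit of all 12 arrays. Of 20 chemokine genes 1 was called. Cxcl13, which attracts B cells, rose by 2.19 (SE 0.21, adjusted p = 0.00089, limma), from 10.47, 10.30 and 10.65 to 12.96, 12.98 and 12.06. The neutrophil attractant Cxcl1 was 8.43, 8.56 and 8.31 against 9.28, 10.30 and 9.56 and had an adjusted p of 0.0304 without being called. Of 16 interferon response genes, Mx2 alone was called, with a rise of 0.56.

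Markers of immune cells were measured beside these genes. In whole liver, more cells of a type and more RNA per cell cannot be told apart. Of 11 Kupffer cell and macrophage markers the scavenger receptor Marco was called, with a rise of 0.93 and a call that was lost without each saline array, each Albulin array and Insulin-Apo replicates 1 and 2. At an unadjusted p under 0.05, 5 of the 11 markers were higher and 0 lower, and the median difference was 0.24. The mean log2 value of the 11 markers was 9.88 to 10.14 in the saline arrays and 10.06 to 10.58 in the Insulin-Apo arrays, which overlap. Of 9 neutrophil markers 0 were called by limma, and 7 were higher at an unadjusted p under 0.05. The mean of the 9 was 6.95 to 7.20 after saline and 7.39 to 7.58 after Insulin-Apo, without overlap. How often the means of such lists do not overlap was not counted. S100a9, a calcium-binding protein of neutrophils, was 8.32, 8.07 and 8.09 in saline and 8.73, 8.79 and 8.44 after Insulin-Apo. The granule enzymes Mpo and Elane, at 7.25 and 7.59 in saline, differed by -0.06 and -0.02. Of 7 monocyte and dendritic cell markers Chil3 rose by 0.81, from 5.69, 5.70 and 5.46 to 6.26, 6.56 and 6.47. Of 9 sinusoidal endothelial markers 0 were called, with a median of 0.21 and 2 higher at an unadjusted p under 0.05. The part of these cells in the inflammatory changes was not tested. Lists of hepatocyte, stellate cell, cholangiocyte, B cell, T and NK cell, erythroid, pancreatic and adipocyte markers gave 0 calls by limma. At an unadjusted p under 0.05 they gave 1 hepatocyte marker higher, and 1 hepatocyte and 1 stellate cell marker lower.

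Genes of the unfolded protein response were called in each group listed here, namely sensors and factors, chaperones, disulfide bond formation, degradation and translocation. Of 36 tested, 16 were called higher and 0 lower (44.4% against 1.56%), and all 36 differences were above 0, with a median of 0.38. In the ER stress response element, to which the factors ATF6 and NF-Y bind, CCAAT is followed after a gap of 9 bases by CCACG. This pattern, searched on both strands, was in 0.119% of 32851 RefSeq promoters of 300 bases. It was in 4 of the 11 called and in 6 of the 18 not called members that had a promoter. The stretches of the 4 called genes are shown because they carry the response element of this list, 5′ to 3′ on the gene's strand in build GRCm38.p6, with the element's fixed letters in capitals and in reverse for Creld2 and Ero1b.
Hspa5: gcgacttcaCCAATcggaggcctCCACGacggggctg
Creld2: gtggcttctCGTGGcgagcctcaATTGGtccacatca
Syvn1: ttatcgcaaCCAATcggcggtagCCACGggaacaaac
Ero1b: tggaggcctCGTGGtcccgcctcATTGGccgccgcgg

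The Hspa5 stretch lies at chr2:34772016-34772052, that of Creld2 at chr15:88819511-88819547, that of Syvn1 at chr19:6046523-6046559 and that of Ero1b at chr13:12565673-12565709, all on the plus strand. They end 38, 99, 17 and 174 bases before the start of the gene. A match describes letters only.

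Chaperones led the list, with 8 of 13 called. Hspa5 encodes BiP, the main chaperone of the ER lumen. It was 13.03, 13.14 and 13.35 after saline and 13.77, 13.88 and 13.72 after Insulin-Apo, a rise of 0.62 (SE 0.08, adjusted p = 0.0042, limma) without overlap. Its partners rose more. Sdf2l1, an ER protein that works with BiP and its cochaperones, was 10.40, 10.86 and 10.58 in the saline and 11.82, 12.21 and 11.93 in the Insulin-Apo arrays. Creld2, an ER resident factor, was 10.59, 10.80 and 11.02 against 12.05, 12.42 and 12.05. Both rose by 1.37 (SE 0.12, adjusted p = 0.000482, limma). The BiP cochaperones Dnajb9 and Dnajb11 rose by 1.20 and 0.69, Hspa13 by 1.18, Hyou1 by 0.78 and the secreted stress protein Manf by 1.02. Calr and Canx, the lectin chaperones of glycoproteins, differed by 0.27 and 0.06 and were not called.

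Among the 5 sensors and factors, Eif2ak3, which encodes the kinase PERK, rose by 0.99 and Xbp1 by 0.61. Eif2ak3 was 8.63, 8.70 and 8.78 after saline and 9.61, 9.88 and 9.59 after Insulin-Apo. Atf6 differed by 0.37 and Ern1, which encodes IRE1, by 0.07, both without a call. The array reads the Xbp1 gene as a whole and does not tell its spliced form apart. Of 5 genes for disulfide bond formation the oxidase Ero1b rose, by 0.82. For degradation of misfolded proteins 3 of 8 genes rose, the ubiquitin ligase Syvn1 by 0.89, Selenos by 0.52 and Derl1 by 0.31, and for translocation Ssr3 by 0.59 and Sec61a1 by 0.42. In the fit of all 12 arrays 9 of the 36 were called, and with 1 array left out 14 to 17. The calls of Derl1 and Sec61a1 were lost without saline replicates 1 and 2 and Insulin-Apo replicate 2, and that of Derl1 without every other array but Insulin-Apo replicate 3 as well. Of 21 genes of the integrated stress response, which PERK and other kinases drive, Atf4 was called with 0.35, a call lost without each array but Albulin replicate 3.

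The next steps of secretion also held higher genes. A list of 76 genes of N-glycosylation and ER to Golgi transport, drawn up after the largest changes were seen, had 73 tested members, of which 17 were called higher and 0 lower (23.3%), with a median of 0.22. Because the list was drawn up this way, its count is no independent evidence of its direction. In N-glycan assembly 3 of 21 rose. Gmppb makes GDP-mannose and rose by 1.20 (SE 0.17, adjusted p = 0.00482, limma), from 7.37, 7.49 and 7.69 to 8.58, 9.12 and 8.45. The mannosyltransferase Alg2 rose by 1.02, from 9.61, 9.61 and 9.82 to 10.68, 10.92 and 10.51. Dpagt1, which starts the glycan on dolichol, rose by 0.50, and Ostc of the oligosaccharyltransferase by 0.71.

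Coats of transport vesicles were represented on both routes. Of 13 genes of COPII, the coat of vesicles that leave the ER, 3 rose, with Sec23b from 10.69, 10.55 and 10.76 to 11.60, 12.04 and 11.42. Sec23b rose by 1.02, its coat partner Sec24d by 0.80 and the exchange factor Preb by 0.65. On the return route 4 of 14 genes rose, among them Arfgap3, which releases the COPI coat, by 1.19 and Arcn1, a COPI subunit, by 0.40. The calls of Arcn1 and of Arf4, a small GTPase of the COPI coat with a difference of 0.41, were lost without each array but saline replicate 3 for Arcn1 and Insulin-Apo replicate 3 for Arf4. Golph3l, a Golgi protein, rose by 1.08, the cargo receptors Tmed3 and Tmed9 by 0.89 and 0.68, and the SNARE proteins Sec22b and Bet1 by 0.68 and 0.54. Arfgap1, a relative of Arfgap3, and the Golgi protein Yipf5 rose by 0.45 and 0.57. The call of Tmed3 was lost without saline replicate 1 or 3, and that of Ostc without saline replicate 1. The response element above was in the promoter of 0 of 11 called and 1 of 51 other members of this list. Of 39 proteasome genes 2 were called, Psmc6 with 0.37 and Psmd14 with 0.33, and all 39 differences were above 0, with a median of 0.15. Without saline replicate 1 or 2 or Insulin-Apo replicate 2 both of these calls were lost, and that of Psmd14 without every other array but Insulin-Apo replicate 1.

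**Figure D3:**
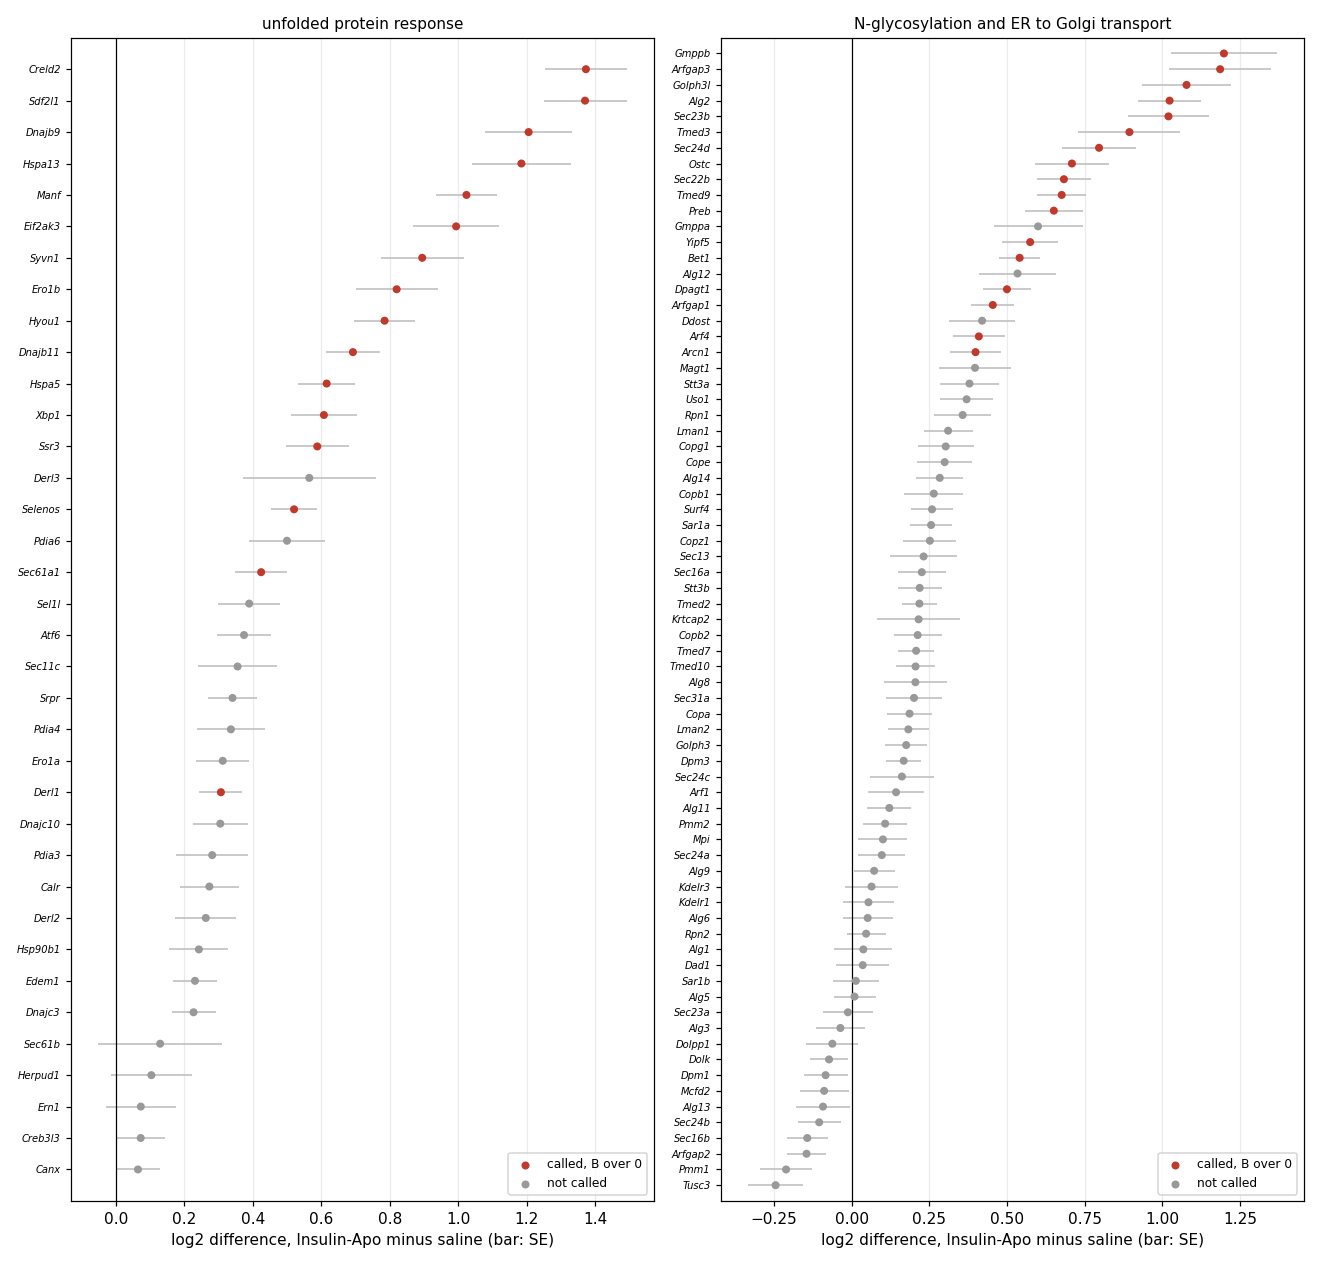
Log2 difference between Insulin-Apo and saline, with its SE, for the 36 tested genes of the unfolded protein response (left) and the 73 of N-glycosylation and ER to Golgi transport (right), ordered by size, with called genes in red. All points on the left lie above 0, and 61 of 73 on the right do.

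The list with the most decreases was that of the circadian clock and its outputs. Of 22 tested, 9 were called lower (40.9% against 0.995% of all genes) and 1 higher, and the median was -0.38. The clock is a loop in which Clock and Arntl activate the Per and Cry repressors, and factors such as Dbp, Tef and Nfil3 pass the rhythm on. Of the 3 activators tested 0 were called by limma, and 2, Clock and Arntl, were higher at an unadjusted p under 0.05, with differences of 0.24 and 0.61. Among 10 repressors 3 fell. Per3 was 8.79, 9.10 and 8.94 in the saline and 7.49, 7.81 and 8.05 in the Insulin-Apo arrays, a decrease without overlap. It fell by 1.16 (SE 0.13, adjusted p = 0.00168, limma) and was called in every alternative run. Ciart was 11.34, 11.69 and 11.31 against 9.80, 7.90 and 10.10, with replicate 2 far below the others. The Ciart difference was -2.18 with an SE of 0.45, its call was lost without each saline and each Albulin array, and a dimmer probe set of Ciart at -1.83 was not called. Cry2 fell by 0.37, a call lost without each array but Insulin-Apo replicate 3.

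The promoter stretches of Per3 and Ciart are shown because they hold repeated copies of the D-box TTANGTAA, which Dbp, Tef and Nfil3 bind, and of the E-box CACGTG, which Clock and Arntl bind. Letters of the motif are in capitals, 5′ to 3′ on the gene's minus strand in GRCm38.p6, at chr4:151044807-151044879 for Per3 and chr3:95882258-95882353 for Ciart.
Per3: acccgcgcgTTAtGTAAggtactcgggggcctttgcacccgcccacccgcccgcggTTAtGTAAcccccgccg
Ciart: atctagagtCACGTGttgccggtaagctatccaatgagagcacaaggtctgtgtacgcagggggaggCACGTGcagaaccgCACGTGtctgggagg

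Searched on both strands, the D-box was in 2.32% and the E-box in 7.15% of the 32851 promoters. Of 9 called clock list members with a promoter, 2 held the E-box and 1 the D-box, and of 10 not called 3 held the E-box and 0 the D-box.

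The output factors Dbp and Tef fell by 1.13 and 0.64, while their antagonist at the D-box, Nfil3, rose by 1.42 (SE 0.17, adjusted p = 0.00229, limma). Dbp was 11.03, 11.47 and 11.16 after saline and 9.57, 10.53 and 10.18 after Insulin-Apo, and Nfil3 was 8.70, 8.61 and 8.33 against 9.83, 10.35 and 9.70. The arrays of these genes did not overlap, which holds for all 556 called probe sets. Of 5 output effectors 4 fell. Usp2, a deubiquitinase, was 10.52, 10.73 and 10.58 in saline and 8.38, 8.32 and 9.27 after Insulin-Apo, and fell by 1.95 (SE 0.21, adjusted p = 0.00129, limma). Rgs16, a brake on G protein signalling, fell by 1.88, from 12.11, 11.46 and 11.32 to 9.71, 9.64 and 9.90. The kinase Wee1 fell by 0.95 and Tsc22d3, which glucocorticoids also induce, by 1.16. Tsc22d3 was the only 1 of 15 glucocorticoid response genes called. Without saline replicate 2 or saline replicate 3, and in a fit of the 6 saline and Insulin-Apo arrays, 5 clock genes were called lower. The calls of Dbp and Tef were lost without these replicates, and that of Tef without Insulin-Apo replicate 1 or 2. Time of day and treatment cannot be told apart here, since the sources used give no time for any group.

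**Figure D4:**
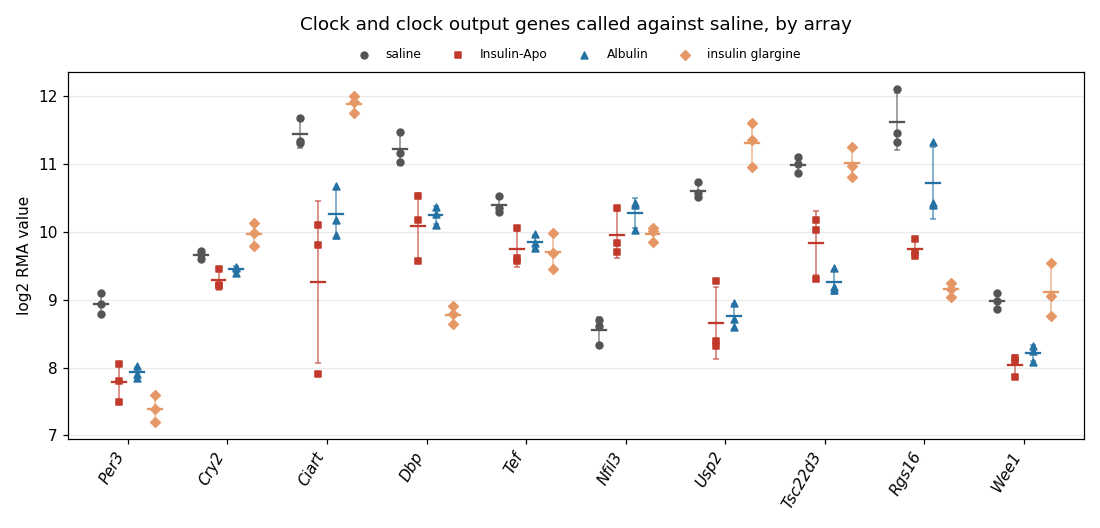
Log2 expression value of the 10 called clock and output genes in each array of saline (grey circles), Insulin-Apo (red squares), Albulin (blue triangles) and insulin glargine (orange diamonds), with group means and SD of 3 arrays. After insulin glargine Usp2, at 10.97 to 11.61, lies above the saline arrays and Tsc22d3, at 10.81 to 11.26, near them, and both are lower after Insulin-Apo, while Dbp is lower still after insulin glargine, at 8.64 to 8.90.

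The other genes among the 10 largest decreases were in none of the gene lists. Upp2, a uridine phosphorylase, fell by 1.89, with 12.63, 13.02 and 12.81 in saline and 11.10, 9.97 and 11.70 after Insulin-Apo, and its call was lost without saline replicate 2. The steroid dehydrogenases Hsd3b2 and Hsd3b3 fell by 1.71 and 1.40. Hsd3b2 was tight in saline, at 9.58, 9.54 and 9.56, and was 7.71, 7.42 and 8.40 after Insulin-Apo. These are members of a family of close copies, and their probes may be shared. Keg1 fell by 1.41, the mitochondrial carbonic anhydrase Car5a by 1.26 and the kinase Map2k6 by 1.19. The other large increases were the magnesium transporter Slc41a2, which rose by 2.87 (SE 0.20, adjusted p = 0.000149, limma), from 9.20, 8.83 and 9.12 to 11.86, 12.40 and 11.48, and the zinc finger gene Zfp9, which rose by 1.80. The ephrin Efna1 rose by 1.91. Serpina7, which encodes thyroxine-binding globulin, was 10.03, 8.29 and 9.83 against 11.43, 13.45 and 11.52, a difference of 2.75 with an SE of 0.54, and its call was lost without saline replicate 2 or 3 and without Albulin replicate 1 or 2.

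Of 31 genes of iron, zinc and magnesium handling 4 were called higher, 3 of 7 listed under zinc and 1 of 7 under magnesium. Another gene listed under zinc was called lower. Which metal each listed protein carries was not tested. The transporters Slc39a14 and Slc30a10 rose by 0.72 and 1.04, and the zinc exporter Slc30a1 fell by 0.51, from 9.80, 9.90 and 9.74 to 9.38, 9.16 and 9.36, a call lost without saline replicate 1 or 2 or Insulin-Apo replicate 2. Hamp, which encodes the iron hormone hepcidin and lies among genes that interleukin 6 can raise, was at 14.10 in saline and differed by 0.17 without a call.

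Bile acid synthesis and transport genes leaned lower, with 3 of 23 called lower, 0 higher and a median of -0.33. Only 1 of the 23 differences was above 0. The bile acid receptor Nr1h4 fell by 0.44, the reductase Akr1d1 by 0.64 and the exporter Abcc3 by 0.63. Abcc3 was 12.51, 12.50 and 12.45 in saline and 11.99, 11.50 and 12.08 after Insulin-Apo. Without saline replicate 1, without saline replicate 3 and in a fit of the 6 arrays, 0 of the list were called. Without saline replicate 2, Albulin replicate 1 or Albulin replicate 2, 1 was called, and without Insulin-Apo replicate 3 there were 5. Abcc3 was also lost without Albulin replicate 3, and Nr1h4 without Insulin-Apo replicate 1 or 2. The largest difference was in Cyp7a1, the rate-limiting enzyme of bile acid synthesis, and it was not called. Cyp7a1 was 13.63, 13.75 and 13.52 after saline and 11.18, 10.12 and 12.88 after Insulin-Apo. The groups did not overlap, but the treated arrays spread over more than 2 log2 units, so that the difference of -2.24 had an SE of 0.53 and an adjusted p of 0.0442 by limma. Without Insulin-Apo replicate 3, the array nearest to saline, Cyp7a1 was called.

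Genes of lipid and glucose metabolism and of insulin signalling were counted next. Of 23 genes of fatty acid synthesis 1 was called (4.35% against 0.995% of all genes called lower), the acetyl-CoA maker Acss2, which fell by 0.76, and this call was lost without each saline array and without Albulin replicate 2. Fatty acid synthase (Fasn) was 10.23, 9.81 and 9.79 after saline and 9.92, 10.12 and 9.69 after Insulin-Apo. Its difference of -0.04 (SE 0.19) was within the spread of the arrays. Acly, which splits citrate, differed by 0.03 (SE 0.16) and Acaca, acetyl-CoA carboxylase, by 0.30 (SE 0.12, adjusted p = 0.221, limma). Of 22 genes of cholesterol synthesis and LDL uptake 0 were called by limma, with 5 lower and 0 higher at an unadjusted p under 0.05.

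For glucose output 2 of 17 genes were lower (11.8%). Pdk2, a kinase that inhibits pyruvate dehydrogenase, fell by 0.79, and Phka2, a subunit of phosphorylase kinase, fell by 0.31, a call lost without each array but Albulin replicates 2 and 3. Pdk2 was 11.61, 11.80 and 11.44 in saline and 10.82, 10.67 and 10.99 after Insulin-Apo. The gluconeogenic Pck1 and G6pc differed by -0.10 and 0.12 and were not called. For glucose uptake and glycolysis 2 of 23 were lower (8.7%). The glucose transporter Slc2a2 fell by 0.63 and the urate transporter Slc2a9 fell by 0.52. The receptor gene Insr was at 11.90 to 12.09 in saline and 11.81 to 11.85 after Insulin-Apo, a difference of -0.19 without a call. In insulin signalling 1 of 25 genes was higher and 2 lower (4.0% and 8.0%). The phosphatase Ptpn1 rose by 0.62, from 9.28, 9.28 and 9.57 to 9.99, 9.92 and 10.10. Foxo3, a factor that insulin restrains, and the stress-induced Sesn3 had differences of -0.41 and -0.50. The call of Foxo3 was lost without saline replicate 1 or 2 or Insulin-Apo replicate 2 or 3. The lipid droplet protein Plin2 rose by 0.84 and was 1 of 2 calls among 27 genes of fatty acid oxidation and ketone synthesis. Of 22 apolipoprotein and HDL genes 0 were called by limma, 1 higher and 2 lower at an unadjusted p under 0.05. The mouse Apoa1 gene, the counterpart of the human part of the fusion, was 14.75, 14.78 and 14.83 in saline and 14.81, 14.75 and 14.78 after Insulin-Apo.

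Lists of growth hormone and IGF genes, autophagy, growth factor receptors and cytochrome P450 gave 0 calls by limma. So did those of phase II conjugation, hepatokines and inhibins, respiratory chain and cell cycle. At an unadjusted p under 0.05, 8 of 32 cytochrome P450 genes were lower and 0 higher. At that threshold 6 of 27 conjugation genes were lower and 2 higher. Of all 25989 probe sets tested, 4526 passed it in either direction. Lower at an unadjusted p under 0.05 were 5 autophagy, 4 growth hormone and IGF and 3 respiratory chain genes. So were 1 growth factor receptor, 1 hepatokine and 1 cell cycle gene. Higher were 4 of 6 inhibin genes, and 1 each of hepatokines, autophagy, growth factor receptors and cell cycle. Of 25 genes of the urea cycle and amino acid catabolism, Gpt, an alanine aminotransferase, fell by 0.70, and 14 were lower at an unadjusted p under 0.05. Without Insulin-Apo replicate 3 the urea cycle list gave 4 calls lower and the cytochrome P450 list 5. The nucleolar genes Nop58 and Gnl3 rose by 0.81 and 0.60 among 32 genes of ribosome biogenesis. Among genes that answer to G protein and MAP kinase signals, Crem rose by 0.85 and Map3k8 by 0.41, and Pde3b, which degrades cyclic AMP, fell by 0.51 beside Rgs16. The call of Map3k8 was lost without saline replicate 2 or 3 or Insulin-Apo replicate 1 or 2, and that of Pde3b without saline replicate 1. Other single calls were C8a and Mbl1 of complement, higher by 0.66 and 0.47, Junb by 0.67, Hspb8 by 0.55 and Slc16a1 by 0.61, and the arginine transporter Slc7a2, which fell by 0.39. Slc16a1 was lost without each array but Insulin-Apo replicate 3, C8a without each Albulin and each Insulin-Apo array, Slc7a2 without each saline array, Albulin replicate 1 and Insulin-Apo replicates 2 and 3, and Junb without saline replicate 3 or Insulin-Apo replicate 2. Gpt was lost without saline, Albulin or Insulin-Apo replicate 1 or 2.

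Albulin was given at the same dose and time, and the difference between both fusion proteins was tested in the same fit. Between Insulin-Apo and Albulin 166 probe sets were called, 101 higher and 65 lower after Insulin-Apo (131 and 47 with arrays centred on their medians, 87 and 88 after a repeated quantile normalization), with a largest adjusted p of 0.0954, and 36 of all tested had an adjusted p under 0.05. With 1 probe set per gene 0.683% of genes were called. Without Albulin replicate 1 there were 77 calls, without Albulin replicate 3 there were 106, and without Albulin replicate 2 there were 43 higher and 103 lower. Lower after Insulin-Apo were lipogenic genes. Acly was 10.42, 9.96 and 9.89 after Insulin-Apo and 11.82, 11.26 and 11.75 after Albulin, a difference of -1.52 (SE 0.16, adjusted p = 0.00804, limma). Fasn, at 11.58, 10.89 and 11.64 after Albulin, differed by -1.46, Acaca by -1.09 and Thrsp, a nuclear protein that promotes lipogenesis, by -1.60. Together with Pgd, at -0.93, 5 of 23 fatty acid synthesis genes were called lower than after Albulin. In sugar metabolism Pklr, the pyruvate kinase of liver, Khk, which phosphorylates fructose, and the glycogen phosphorylase Pygl differed by -0.95, -0.57 and -0.48. Their calls were lost without Albulin replicate 1 or 3, and that of Pygl also without saline replicate 2 or Insulin-Apo replicate 2 or 3. Pklr, Khk and Pygl did not reach an adjusted p under 0.05 by limma. The saline arrays are shared, and the saline levels of Acly, at 10.02 to 10.12, lay within the Insulin-Apo range.

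Of the unfolded protein response 5 genes were called higher after Insulin-Apo than after Albulin and 0 lower. Against saline, Albulin itself gave 6 calls higher and 0 lower among the 36, where 1.57% of all genes were called higher, and these were Xbp1, Dnajb9, Manf, Hspa13, Ero1b and Ssr3. Sdf2l1 was 10.75, 10.80 and 10.71 after Albulin, inside the saline range, and was higher after Insulin-Apo by 1.23 (SE 0.12, adjusted p = 0.00804, limma). Creld2 was higher by 0.92, Derl3 by 1.00, Manf by 0.47 and Selenos by 0.32. The calls of Sdf2l1 and Creld2 held whichever 1 array was left out, while those of Selenos, Derl3 and Manf were each lost without Albulin replicate 1, Albulin replicate 2 and Insulin-Apo replicate 1. Selenos was also lost without every other array but saline replicate 1, Derl3 without saline replicate 1 or Insulin-Apo replicate 3, and Manf without Albulin replicate 3 or Insulin-Apo replicate 2. In the fit of all 12 arrays Creld2, Manf and Selenos were not called. Il1b was higher than after Albulin by 1.27, a call lost without each saline array and without Albulin replicate 1 or 3, and Ly96 by 0.74. Rgs1 and Dusp1, feedback genes of G protein and MAP kinase signalling, were higher by 0.92 and 0.90. Dusp1 was 11.16, 11.12 and 11.28 after Albulin and 12.07, 12.19 and 11.98 after Insulin-Apo, with 11.50 to 12.10 in saline. Il17ra, the interleukin 17 receptor, differed from Albulin by -0.98. B3galt1, which encodes a galactosyltransferase, lay between the levels of saline and Albulin, with a difference of -1.07 from Albulin and of 1.31 from saline. The first of these calls was lost without Albulin replicate 1 or Insulin-Apo replicate 2. Calls against Albulin that did not reach an adjusted p under 0.05 by limma included those of Derl3, Manf, Il1b and B3galt1. Of 24 acute phase and 22 clock genes 0 were called between the fusion proteins by limma. At an unadjusted p under 0.05, 2 acute phase genes were higher and 1 lower after Insulin-Apo, and 1 clock gene was higher and 5 lower. Against saline, Albulin itself gave 16 acute phase genes called higher and 0 lower. Of 25 genes listed under interleukin 6 and interleukin 1 signalling it gave 8 higher and 0 lower. Among the clock genes it gave 1 higher and 4 lower. The share of all genes called lower after Albulin was not counted. The mean of Saa1 was 11.85 (SD 0.74, 3 arrays) after Albulin and 11.63 (SD 0.90, 3 arrays) after Insulin-Apo, a difference of -0.22 with an SE of 0.42.

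**Figure D5:**
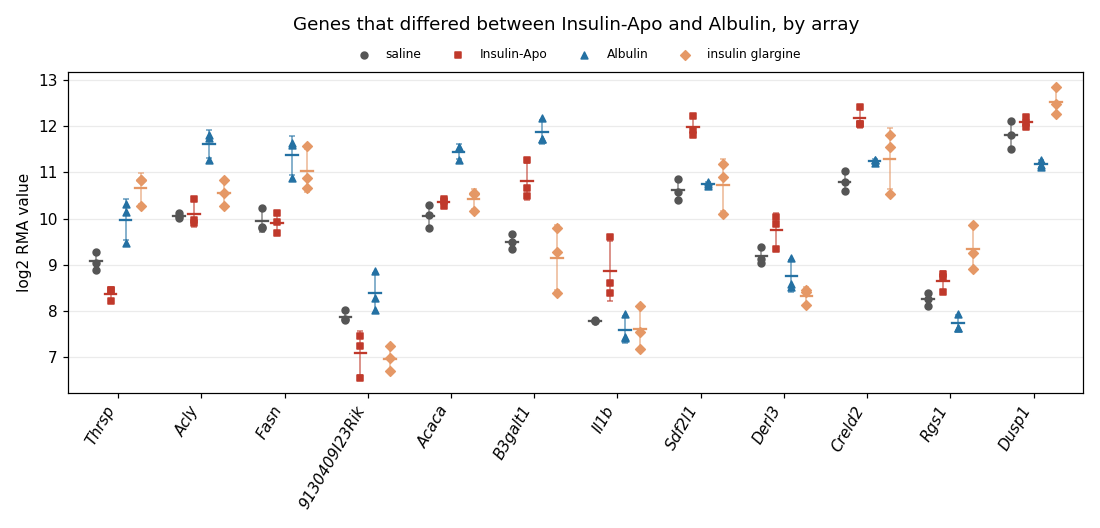
Log2 expression value of 12 genes called between Insulin-Apo and Albulin, the largest differences each way, in each array of the 4 groups, with group means and SD of 3 arrays. Acly, Fasn and Acaca lie near saline after Insulin-Apo and above both after Albulin, and Sdf2l1 lies near saline after Albulin and above both after Insulin-Apo.

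Insulin glargine was compared in a fit of all 12 arrays, in which 5.57% of 18917 genes were called between Insulin-Apo and insulin glargine. Of 24 acute phase genes 11 were higher after Insulin-Apo and 0 lower. Saa1 was 5.94, 6.67 and 6.67 after insulin glargine, inside or near the saline range, and Insulin-Apo was higher by 5.21 (adjusted p = 2.13e-05, limma). Orm2 was 11.44, 11.31 and 11.40, and Insulin-Apo was higher by 2.17. Of the unfolded protein response 5 of 36 genes were higher and 0 lower, among them Sdf2l1 by 1.26 and Dnajb9 by 1.22. Hspa5, at 13.51 to 13.80 after insulin glargine, differed by 0.15 and was not called.

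Clock genes differed in both directions, with 8 lower and 2 higher after Insulin-Apo. Usp2 differed from insulin glargine by -2.65 and Ciart by -2.63, while Dbp was 1.31 higher. Arntl, named after its values were seen, was 10.40, 10.06 and 10.34 after insulin glargine, 9.39, 8.55 and 8.79 after Insulin-Apo and 8.58, 8.05 and 8.27 after saline. Nr1d1, named in the same way, was 9.75, 10.76 and 10.56 after insulin glargine and 11.88 to 12.51 in the saline and Insulin-Apo arrays. Cd14 was 10.69, 10.96 and 10.55 after insulin glargine, and the difference of Insulin-Apo from it was -2.01. Thrsp differed by -2.28. Fasn, at 10.66, 10.88 and 11.57 after insulin glargine, differed by -1.13 without a call.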

How the data were processed

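Liver RNA was hybridized to Affymetrix Mouse Gene 1.0 ST arrays. The deposited values are log2 values that the authors made from the arrays with RMA, which corrects the background, normalizes the arrays and summarizes probes. The version of RMA is not given in the sources used here, nor whether the 12 arrays were normalized together.

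Symbols came from the array's annotation, with 21640 probe sets having 1 symbol, 1321 several and 5252 none, and 21553 matched RefSeq (GRCm38.p6). Where several probe sets had the same symbol, that with the highest mean over 9 arrays was used. Probe sets with several symbols named no gene.

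limma 3.58.1 in R 4.3.3 was fitted to 9 arrays with a mean per group (lmFit, eBayes with a prior proportion of 0.01) after probe sets that did not exceed 5 in 2 arrays of any group were dropped, following the study's methods, and was tested on simulated data. A call is B over 0. Adjusted p-values are Benjamini-Hochberg. Comparisons with insulin glargine used 12 arrays. Figures used Matplotlib 3.10.9.

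The members and gene lists were chosen with earlier results of these data known. Named genes were up to 10 per direction with the largest called difference and no overlap, called list members, up to 4 others per list with the smallest p, Cyp7a1, Fasn, Acly and Acaca, check genes, and up to 6 per direction against Albulin. Other list members given without a call, and genes of the comparison with insulin glargine, were chosen after their values were seen. The number of arrays limits precision. Alternatives were other filters, centring, quantile normalization, a replicate block, an intensity trend, array weights, other sets of arrays, other thresholds, 1-symbol probe sets, means of probe sets and each array left out.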

Additional observations from a re-analysis of the deposited data

How the results depend on the processing

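The count of 556 probe sets called between Insulin-Apo and saline was 361 with all 12 arrays in the fit, 969 at an adjusted p under 0.05 and 324 with a log2 difference of at least 0.58 as well. It ranged from 324 (without saline replicate 2) to 643 (without Insulin-Apo replicate 3) when 1 array was left out. The 166 calls between Insulin-Apo and Albulin became 90 with all 12 arrays, 36 at an adjusted p under 0.05 and 28 with a difference of at least 0.58, and ranged from 77 (without Albulin replicate 1) to 180 when 1 array was left out. Their split of 101 higher and 65 lower was 131 and 47 with arrays centred on their medians, 87 and 88 after repeated quantile normalization and 43 and 103 without Albulin replicate 2. The fit with the replicate number as a block gave 499 and 165 calls. Same-numbered arrays of different groups deviated with correlations of -0.12 to 0.13. Differently numbered arrays were not compared, so these values cannot decide whether the numbers pair the arrays. Of 112 called genes that were followed singly, 52 were called in every alternative run, 35 lost the call in 1 to 5 and 25 in over 5 of up to 22, and in none did the called direction reverse. The causes were not tested. Values near the top of the scale, such as those of fibrinogen genes, can be compressed, and dim genes have only the floor of 5 as a bound.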
